A study of Homo sapiens with 9 samples.

Results

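The MYC, MAX and MXD network is a set of transcription factors that share a basic helix-loop-helix leucine zipper and bind DNA in pairs. The 10 genes described here were taken by symbol from the table, and all 10 were present among its 25084 genes: the MYC paralogs MYCN, MYC and MYCL, their common partner MAX, and the 6 antagonists MXD1, MXD3, MXD4, MXI1, MNT and MGA. LAN5, an established neuroblastoma line with MYCN amplification, was nucleofected with small interfering RNAs (siRNAs, which target a matching transcript for decay), and total RNA was sequenced. There were 3 groups of 3 libraries, all collected 72 h after transfection in serum-containing growth medium: the control agent siCTR, the MYCN siRNA (siMYCN_2 by its label, here siMYCN) and the HAND2 siRNA (siHAND2_3, here siHAND2). HAND2 encodes a basic helix-loop-helix factor of the sympathetic lineage, and the study concerns genes under the control of HAND2 and MYCN. With 1 siRNA name per target in 1 cell line, an effect of the agent cannot be told apart from an effect of its target.

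As background, a MYC protein paired with MAX binds the E-box CACGTG and activates transcription, above all of genes for ribosome production, nucleotide synthesis and metabolism. The MXD proteins, MXI1 and MNT also pair with MAX and bind the same sites, where they recruit the SIN3 and histone deacetylase corepressor. MGA, a much larger protein that pairs with MAX, belongs to a Polycomb repressive complex named PRC1.6. Extra copies of MYCN mark aggressive neuroblastoma, and such cells usually contain very little MYC.

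Levels are in CPM, read numbers corrected for library size. The libraries held 21.1 to 32.7 M assigned reads, judged from the smallest steps between low values. HAND2 lay between 489 and 516 CPM under siCTR, between 557 and 588 CPM under siMYCN and between 267 and 280.4 CPM under siHAND2, so the siHAND2 mean was 54.2% of control. All 10 markers listed for neuroblastoma exceeded 1 CPM on average and 8 of them 100 CPM, whereas the 4 endothelial and 4 Schwann cell markers stayed under 1 CPM on average. Both immune markers found in the table, of 4 listed, were also under 1 CPM. No batch or date was given, and nothing states that the libraries came from separate cultures, so the p-values measure the spread between these libraries, which may be technical. In bulk RNA, fewer cells with a transcript and less of it per cell cannot be told apart.

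After siMYCN, MYCN, MAX and MXI1 fell, and MYC, MXD4 and MXD3 rose, MXD3 by a call that held in only 8 of 18 alternative fits. After siHAND2, MYCN, MAX and MXI1 fell and MYC rose, the call of MAX holding in 14 of 18. Changes are log2 fold changes of CPM + 1, which understate the change of low genes, tested with limma on the 14495 genes that reached 1 CPM in 3 or more libraries, with Benjamini-Hochberg adjustment across these genes. In siMYCN against siCTR, 6 of the 10 members passed an adjusted p of 0.05, 3 higher and 3 lower, where 35.9% of all genes passed (24.5% higher and 11.4% lower). In siHAND2 against siCTR, 4 members passed, 1 higher and 3 lower, beside 29.9% of all genes (18.1% higher and 11.8% lower). In siHAND2 against siMYCN, 3 members passed, MXI1 and MYC higher and MYCN lower, beside 26.9% of all genes. The 3 libraries of each group stood wholly apart for 6 members in siMYCN against siCTR, beside 49.5% of all genes, for 4 in siHAND2 against siCTR, beside 42.4%, and for 3 between the knockdowns, beside 38.7%. All 10 members passed the filter on low values, but MYC did so only through the knockdown libraries, since it was under 1 CPM in every siCTR library. Both contrasts against siCTR use the same control libraries.

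**Figure D1:**
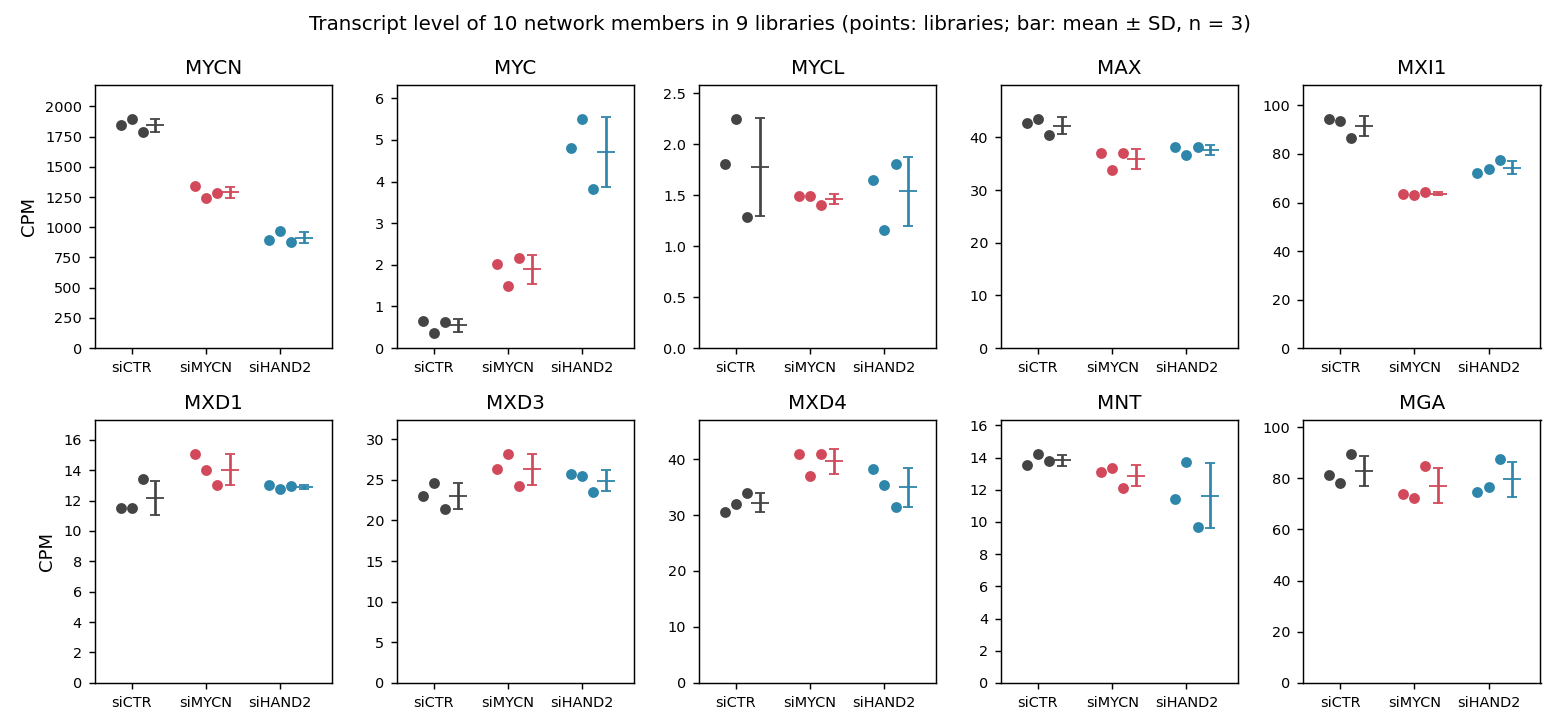
CPM of each of the 10 members (vertical axes start at 0 and differ between panels) in the 3 siCTR, 3 siMYCN and 3 siHAND2 libraries, as points in replicate order with the mean and SD beside them. MYCN steps down from 1842 to 1289 and 914 CPM while MYC steps up from 0.544 to 1.89 and 4.71 CPM, and the libraries of neighbouring steps do not overlap.

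MYCN (chromosome 2, 15940550 to 15947007, plus strand, GRCh38), the amplified paralog, stood at 1848, 1894 and 1786 CPM in siCTR replicates 1 to 3. The siMYCN libraries gave 1338, 1245 and 1285 CPM, and the siHAND2 libraries 898, 969 and 877 CPM. The 3 groups did not overlap, and the lowest levels were those after siHAND2, not those after the siRNA aimed at MYCN. Averaged, the groups gave 1842 ± 54.2, 1289 ± 47.0 and 914 ± 48.4 CPM (SD, n = 3 libraries), so 70.0% and 49.6% of the control level remained. MYCN fell, with a log2 change of -0.52 under siMYCN (standard error 0.05, limma, adjusted p = 7.15e-07) and -1.01 under siHAND2 (standard error 0.05, limma, adjusted p = 1.72e-10). The difference between the knockdowns was -0.50 (limma, adjusted p = 6.21e-07). Quantile normalization moved the siMYCN value to -0.34.

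MYCNOS, annotated on the strand opposite MYCN and overlapping it, went from 45.7 ± 0.299 CPM under siCTR to 61.7 ± 5.93 CPM under siMYCN and 27.9 ± 3.03 CPM under siHAND2 (SD, n = 3 libraries). It rose under siMYCN (0.42, limma, adjusted p = 0.000335) and fell under siHAND2 (-0.70, limma, adjusted p = 2.11e-06). Use of strand in counting is not stated, so reads of the pair cannot be told apart where they overlap. The RefSeq window from 250 bases before to 50 bases after the MYCN start (GRCh38.p14) held no CACGTG and 1 copy of CATCTG, an E-box form bound by HAND2 with E proteins. That copy begins at base 14 of the transcript and is shown, with the motif in capitals, because MYCN fell after siHAND2 (chr2:15940553-15940578, plus strand).
MYCN: ctgtgacagtCATCTGtctggacgcg
CATCTG or its reverse CAGATG occurs in 14.7% of 35114 such windows of the same length, and in 2 of the 14 windows of the members. A match of letters is a description and shows no binding.

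MYC (chromosome 8, 127735434 to 127742951, plus strand), the paralog that drives many other cancers, was at the edge of detection in control cells. It stood at 0.642, 0.374 and 0.617 CPM under siCTR, which stands for 21, 10 and 13 reads. In siMYCN it stood at 2.01, 1.496 and 2.16 CPM (50, 39 and 63 reads), and under siHAND2 4.80, 5.50 and 3.83 CPM (146, 138 and 108 reads). Every siMYCN library lay above every siCTR library, and every siHAND2 library above every siMYCN library. Averaged, the groups gave 0.544 ± 0.148, 1.89 ± 0.349 and 4.71 ± 0.839 CPM (SD, n = 3 libraries), 3.47-fold the control level under siMYCN and 8.65-fold under siHAND2. The log2 change was 0.90 under siMYCN (standard error 0.14, limma, adjusted p = 9.14e-05) and 1.88 under siHAND2 (standard error 0.14, limma, adjusted p = 3.11e-08). The difference between the knockdowns was 0.98 (limma, adjusted p = 4.3e-05). For a gene this low the size depends on the constant added before the logarithm. With 0.1 CPM in place of 1 CPM the changes were 1.64 and 2.91, and with 5 CPM they were 0.31 and 0.80, all past the threshold.

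The order of the 3 groups for MYC was the reverse of that for MYCN. In absolute terms the gain was small, 4.16 CPM in siHAND2 against a loss of 928 CPM of MYCN. Markers of fibroblasts (COL1A1, COL1A2, DCN, LUM and PDGFRA), of which 4 of 5 exceeded 1 CPM on average, COL1A1 did not, and none was at 0 in every library, were checked beside MYC. COL1A2, DCN, LUM and PDGFRA passed as higher in both knockdowns and as higher in siHAND2 than in siMYCN, the order of MYC. Over all genes, 24.5% passed as higher under siMYCN, 18.1% under siHAND2 and 11.4% in siHAND2 against siMYCN. DCN, like MYC, was tested only through the knockdown libraries, since it was at 0.374 to 0.522 CPM under siCTR. PDGFRA, a growth factor receptor, held most of the sum, with means of 121 CPM under siCTR, 144 CPM under siMYCN and 341 CPM under siHAND2. LUM, a matrix proteoglycan, had means of 9.15, 17.2 and 54.7 CPM in the same order. COL1A1 was too low to be tested, with means of 0.720, 0.507 and 0.363 CPM. The summed level of the 5 was 129 to 137 CPM under siCTR, 165 to 171 CPM under siMYCN and 385 to 443 CPM under siHAND2. The order was not particular to fibroblast markers. Of the neuroblastoma markers, ISL1 (202, 251 and 313 CPM) and STMN2 (177, 289 and 343 CPM) also passed as higher in all 3 contrasts. The other neuroblastoma markers did not show this order. DBH and TH rose under siMYCN (0.38 and 0.36) and fell under siHAND2 (-1.01 and -0.70), and PHOX2A and CHGA passed in neither contrast against siCTR. The part of any of these markers in the change of MYC was not tested.

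MYCL (chromosome 1, 39895426 to 39902256, minus strand), the paralog first found in lung cancer, stood at 1.80, 2.24 and 1.28 CPM under siCTR, 1.49, 1.496 and 1.405 CPM under siMYCN and 1.64, 1.16 and 1.81 CPM under siHAND2. The 3 groups overlapped. Its differences of -0.16 under siMYCN (95% confidence interval -0.46 to 0.14, limma, adjusted p = 0.415) and -0.12 under siHAND2 (-0.42 to 0.17, limma, adjusted p = 0.543) did not exceed the spread between libraries. MYCL thus stood above MYC in every siCTR library and below it in every siHAND2 library, per kilobase of the longest annotated transcript.

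MAX (chromosome 14, 65006174 to 65102695, minus strand) is the partner shared by the MYC proteins and their antagonists, some of which can also pair with the related MLX. It stood at 42.8, 43.4 and 40.5 CPM under siCTR, 36.9, 33.8 and 36.97 CPM under siMYCN and 38.2, 36.6 and 38.2 CPM under siHAND2. All 6 knockdown libraries lay below all 3 control libraries, while the knockdowns overlapped each other. The means of 42.2 ± 1.55, 35.9 ± 1.83 and 37.7 ± 0.909 CPM (SD, n = 3 libraries) put MAX at 85.0% of control under siMYCN and 89.1% under siHAND2. MAX fell, with changes of -0.23 under siMYCN (standard error 0.05, limma, adjusted p = 0.00329) and -0.16 under siHAND2 (standard error 0.05, limma, adjusted p = 0.0315). The call under siHAND2 is near the threshold: it was lost without an intensity trend (adjusted p = 0.0509), without siCTR replicate 1 (-0.15), without siCTR replicate 2 (-0.14) and without siHAND2 replicate 2 (-0.14). The difference between the knockdowns was 0.07 (95% confidence interval -0.05 to 0.18, limma, adjusted p = 0.379). FNTB, which overlaps MAX on the other strand, stood at 25.2 ± 0.898, 25.3 ± 0.596 and 23.5 ± 1.34 CPM in the 3 groups and did not pass the threshold in any contrast.

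MXI1 (chromosome 10, 110207605 to 110287365, plus strand), an MXD-type repressor also known as MAD2, fell in both knockdowns, as MYCN did. It stood at 94.3, 93.6 and 86.7 CPM under siCTR, 63.4, 63.2 and 64.5 CPM under siMYCN and 72.0, 73.7 and 77.4 CPM under siHAND2. The 3 groups did not overlap, and the lowest libraries were those of siMYCN. Averaged, the groups gave 91.5 ± 4.20, 63.7 ± 0.657 and 74.3 ± 2.79 CPM (SD, n = 3 libraries), that is 69.6% and 81.2% of control. Its change was -0.52 under siMYCN (standard error 0.05, limma, adjusted p = 6.48e-07) and -0.30 under siHAND2 (standard error 0.05, limma, adjusted p = 0.000164). It was 0.22 higher under siHAND2 than under siMYCN (limma, adjusted p = 0.00222), so the order of the knockdowns was opposite to that of MYCN. All 6 knockdown libraries lay below the control libraries. The annotation lists 26 protein-coding transcripts of MXI1 and 13 of MAX, which a value per gene does not separate.

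MXI1 is also known as a gene induced by low oxygen, and genes of a hypoxia list were counted beside it. Of its 9 tested genes (of 10), 4 were lower and 0 higher under siMYCN, where 11.4% of all genes were lower, and 5 did not pass. Under siHAND2 7 were lower and 0 higher, where 11.8% of all genes were lower. The medians were -0.19 and -0.44 beside 0.06 and 0.04 over all genes tested. The siMYCN median depends on the setting: it was -0.09 without siMYCN replicate 2, -0.09 with a pseudocount of 5 CPM and -0.53 over the 7 genes left by a 5 CPM filter. In the order siMYCN and siHAND2, the mitophagy gene BNIP3 changed by -0.70 and -0.60 (limma, adjusted p = 2.18e-07 and 7.33e-07). PDK1, a brake on pyruvate oxidation, changed by -0.80 and -0.57 (limma, adjusted p = 3.43e-07 and 9.83e-06), and the glucose transporter SLC2A1 by -0.53 and -0.73 (1.41e-06 and 2.46e-08). In siHAND2 against siMYCN, where MXI1 was higher, 1 gene of the list was higher and 4 were lower, beside 11.4% higher and 15.5% lower over all genes. The higher one, named after its value was seen, was PDK1 (0.23, limma, adjusted p = 0.0188). That call was lost without an intensity trend and without siMYCN replicate 1 or 3. The lower ones included the angiogenic factor VEGFA (-0.41, limma, adjusted p = 7.98e-06) and the vasoactive peptide gene ADM (-0.48, 0.00294). The part of this list in the fall of MXI1 was not tested.

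MXD4 (chromosome 4, 2247432 to 2262109, minus strand), a repressor found in differentiating cells, stood at 30.6, 32.04 and 33.9 CPM under siCTR, 40.9, 36.9 and 40.9 CPM under siMYCN and 38.3, 35.3 and 31.4 CPM under siHAND2. The siMYCN group lay wholly above siCTR, and the siHAND2 libraries overlapped both. It rose by 0.29 under siMYCN (standard error 0.07, limma, adjusted p = 0.00398), from 32.2 ± 1.67 to 39.6 ± 2.30 CPM (SD, n = 3 libraries), or 123% of control. In siHAND2, with 35.0 ± 3.47 CPM, the difference was 0.11 (95% confidence interval -0.03 to 0.26, limma, adjusted p = 0.241). Without siHAND2 replicate 3, its lowest library, that difference was 0.19 and passed. The direct difference between the knockdowns, -0.18, did not pass (limma, adjusted p = 0.0714), so a response under siMYCN alone is not shown. It passed without siMYCN replicate 2 (-0.23) and without siHAND2 replicate 1 (-0.24).

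The upstream 250 bases of MXD4 are shown because they hold both E-box forms, CACGTG from base -238 and CATCTG from base -168 counted from the RefSeq start, in capitals (GRCh38.p14, chr4:2262110-2262359, minus strand). The same stretch of MNT, the other member with a CACGTG, at base -193, is set below it (chr17:2401061-2401310, minus strand).
MXD4: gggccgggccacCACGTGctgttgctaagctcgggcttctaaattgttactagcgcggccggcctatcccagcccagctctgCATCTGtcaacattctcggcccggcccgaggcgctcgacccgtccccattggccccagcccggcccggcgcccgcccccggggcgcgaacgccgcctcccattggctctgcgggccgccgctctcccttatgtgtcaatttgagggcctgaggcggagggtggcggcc
MNT: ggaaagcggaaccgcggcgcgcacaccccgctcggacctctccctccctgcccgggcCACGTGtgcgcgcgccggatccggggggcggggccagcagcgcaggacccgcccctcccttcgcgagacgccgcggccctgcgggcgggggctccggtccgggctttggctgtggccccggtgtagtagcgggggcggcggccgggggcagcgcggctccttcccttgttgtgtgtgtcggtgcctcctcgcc
CACGTG, which reads the same on both strands, occurs in 7.26% of the 35114 windows and in 2 of the 14 windows of the members. The windows covered 9 of the 10 members, MYC being the other. Neither motif was found in the 3 windows of MXI1 or the 2 of MAX, which says only that these letters are not in those 300 bases.

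MXD3 (chromosome 5, 177301461 to 177312757, minus strand), an MXD family member expressed in dividing cells, stood at 23.0, 24.6 and 21.4 CPM under siCTR, 26.4, 28.2 and 24.3 CPM under siMYCN and 25.8, 25.5 and 23.4 CPM under siHAND2. The groups overlapped. It rose by 0.18 under siMYCN (standard error 0.07, limma, adjusted p = 0.0483), a call lost under 10 of 18 alternatives, among them median-ratio rescaling (0.13) and quantile normalization (0.12). Each of 5 libraries ended the call when left out: siCTR replicate 1 (0.19, adjusted p = 0.101), siCTR replicate 3 (0.13), siMYCN replicate 1 (0.18), siMYCN replicate 2 (0.13) and siHAND2 replicate 2 (0.18). In siHAND2 the difference was 0.11 (95% confidence interval -0.04 to 0.26, limma, adjusted p = 0.248). MXD3 overlaps PRELID1, on the other strand, which stood at 109 ± 2.84 CPM under siCTR and fell in both, with -0.26 under siMYCN (limma, adjusted p = 0.000907) and -0.22 under siHAND2 (limma, adjusted p = 0.00372). RAB24, which overlaps MXD3 on the same strand, stood at 13.1 ± 1.05, 12.2 ± 0.388 and 12.2 ± 0.814 CPM in the 3 groups (SD, n = 3 libraries) and passed in no contrast. Beside MXD3, the proliferation list (10 genes tested) had 1 gene higher and 1 lower under siMYCN and 2 higher and 0 lower under siHAND2, with medians of 0.01 and 0.02. Over all genes 24.5% were higher and 11.4% lower under siMYCN, and 18.1% and 11.8% under siHAND2, with medians of 0.06 and 0.04. The counts do not set the list apart. The nucleotide reductase gene RRM2 changed by 0.12 under siMYCN (limma, adjusted p = 0.0249) and by 0.26 under siHAND2 (8.6e-05), and the first call was lost after both other scalings and without siCTR replicate 2 or 3 or siMYCN replicate 1 or 3. The mitotic cyclin CCNB1 changed by -0.14 under siMYCN (limma, adjusted p = 0.0291), a call lost without any 1 siCTR library or siMYCN replicate 1 or 3. The replication clamp PCNA changed by 0.16 under siHAND2 (limma, adjusted p = 0.0269), a call lost without siCTR replicate 1 or 2 or siHAND2 replicate 3.

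MXD1 (chromosome 2, 69897688 to 69942945, plus strand), the founding MXD repressor, stood at 11.5, 11.5 and 13.4 CPM under siCTR, 15.1, 13.996 and 13.0 CPM under siMYCN and 13.0, 12.7 and 12.9 CPM under siHAND2. siCTR replicate 3 lay within the siMYCN range, and the groups overlapped. The difference of 0.19 under siMYCN missed the threshold (95% confidence interval 0.03 to 0.36, limma, adjusted p = 0.0591), and without siCTR replicate 3 (0.26) or without siMYCN replicate 3 (0.24) it passed. In siHAND2 the difference was 0.08 (-0.08 to 0.25, limma, adjusted p = 0.446). SNRNP27, which overlaps MXD1 on the same strand, passed in no contrast.

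MNT (chromosome 17, 2384073 to 2401104, minus strand), a MAX-binding repressor present in most cell types, stood at 13.5, 14.2 and 13.8 CPM under siCTR, 13.1, 13.3 and 12.1 CPM under siMYCN and 11.4, 13.7 and 9.71 CPM under siHAND2. The siMYCN libraries lay just below control, with a difference of -0.10 that did not pass (95% confidence interval -0.30 to 0.10, limma, adjusted p = 0.445). The siHAND2 libraries were spread more widely, and their difference of -0.25 missed the threshold (-0.45 to -0.05, limma, adjusted p = 0.0585). It passed after median-ratio rescaling (-0.28, adjusted p = 0.0391) and quantile normalization (-0.30, adjusted p = 0.0331), and with the replicate number as a block (-0.25, adjusted p = 0.021). Without siHAND2 replicate 2, its highest library, it was -0.36 (adjusted p = 0.00614) and the difference from siMYCN, otherwise -0.15, was -0.27 and passed.

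MGA (chromosome 15, 41621224 to 41773081, plus strand) stood at 81.1, 78.2 and 89.5 CPM under siCTR, 73.8, 72.5 and 84.9 CPM under siMYCN and 74.8, 76.4 and 87.4 CPM under siHAND2. The groups overlapped, and in each group the highest library was replicate 3. Neither -0.11 under siMYCN (95% confidence interval -0.25 to 0.04, limma, adjusted p = 0.254) nor -0.06 under siHAND2 (-0.21 to 0.09, limma, adjusted p = 0.55) passed the threshold. MGA was lower in each siMYCN library than in the siCTR library of the same number, and with the replicate number as a block its change under siMYCN passed (-0.11, limma, adjusted p = 0.0464).

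**Figure D2:**
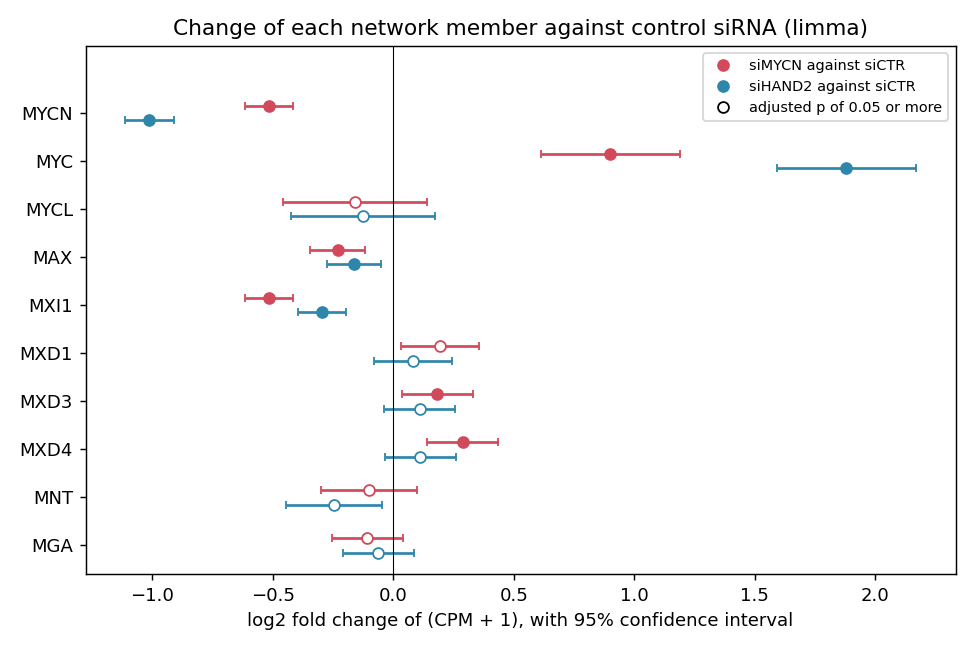
Log2 fold change of CPM + 1 for each member under siMYCN and in siHAND2 against siCTR (horizontal axis), with 95% confidence intervals from limma; filled points passed an adjusted p of 0.05 and open points did not. MYCN and MYC lie on opposite sides of 0 in both knockdowns, MAX and MXI1 lie below 0 in both, and MXD4 is filled under siMYCN (0.29) and open under siHAND2 (0.11).

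Levels of different members can be compared only per length, so CPM was divided by the kilobases (kb) of the longest annotated protein-coding transcript. In siCTR the order was MYCN at 705 ± 20.7 CPM per kb, MXI1 at 26.4 ± 1.21, MAX at 13.4 ± 0.492, MXD3 at 10.1 ± 0.723, MXD4 at 8.32 ± 0.431, MGA at 5.69 ± 0.401, MNT at 2.81 ± 0.0708, MXD1 at 2.18 ± 0.199, MYCL at 0.504 ± 0.137 and MYC at 0.146 ± 0.0397 (SD, n = 3 libraries). No 2 neighbours in that order overlapped between libraries. MYCN exceeded the next member, MXI1, 26.7-fold, and MAX 52.7-fold. Divided by coding length instead, the excess over MAX was 15.04-fold, and MXD4 and MXD1 moved above MXD3 and MGA respectively, so the order of the middle members depends on the length used. In siMYCN, MXD3 and MAX, MNT and MXD1, and MYC and MYCL overlapped their neighbours. In siHAND2, MNT and MXD1 did.

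Ratios within a library do not move when that library is rescaled by 1 factor, and they are given here without a test because the members were chosen with earlier results known. The log2 ratio of MYCN to MAX per kb was 5.70, 5.72 and 5.73 under siCTR, 5.45, 5.47 and 5.39 under siMYCN and 4.83, 5.00 and 4.79 under siHAND2. The groups did not overlap, and the mean ratio was 1.21-fold lower under siMYCN and 1.80-fold lower under siHAND2. Against the summed 6 antagonists, MYCN stood 12.7-fold higher under siCTR, 9.76-fold under siMYCN and 6.79-fold under siHAND2, with log2 ratios of 3.67 ± 0.0174, 3.29 ± 0.0448 and 2.76 ± 0.0657 (SD, n = 3 libraries). The size depends on the length used: the mean log2 ratios were 2.54, 2.11 and 1.61 by coding length and 2.85, 2.46 and 1.94 for undivided CPM. The MYCN transcript thus exceeded all its antagonists together in every library.

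The makeup of the antagonist pool also differed between groups. Its summed level was 55.5 ± 0.964 CPM per kb under siCTR, 50.6 ± 0.283 under siMYCN and 51.6 ± 0.470 under siHAND2. MXI1 made up 48.9%, 47.8% and 45.8% of it in the siCTR libraries, 35.9%, 36.2% and 36.8% under siMYCN and 40.1%, 40.9% and 43.7% under siHAND2. The 3 groups did not overlap. Among the paralogs, MYC made up 0.0208 ± 0.00600% of the summed MYCN, MYC and MYCL under siCTR, 0.102 ± 0.0170% under siMYCN and 0.358 ± 0.0475% under siHAND2, and MYCN remained at 99.9%, 99.8% and 99.5%.

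**Figure D3:**
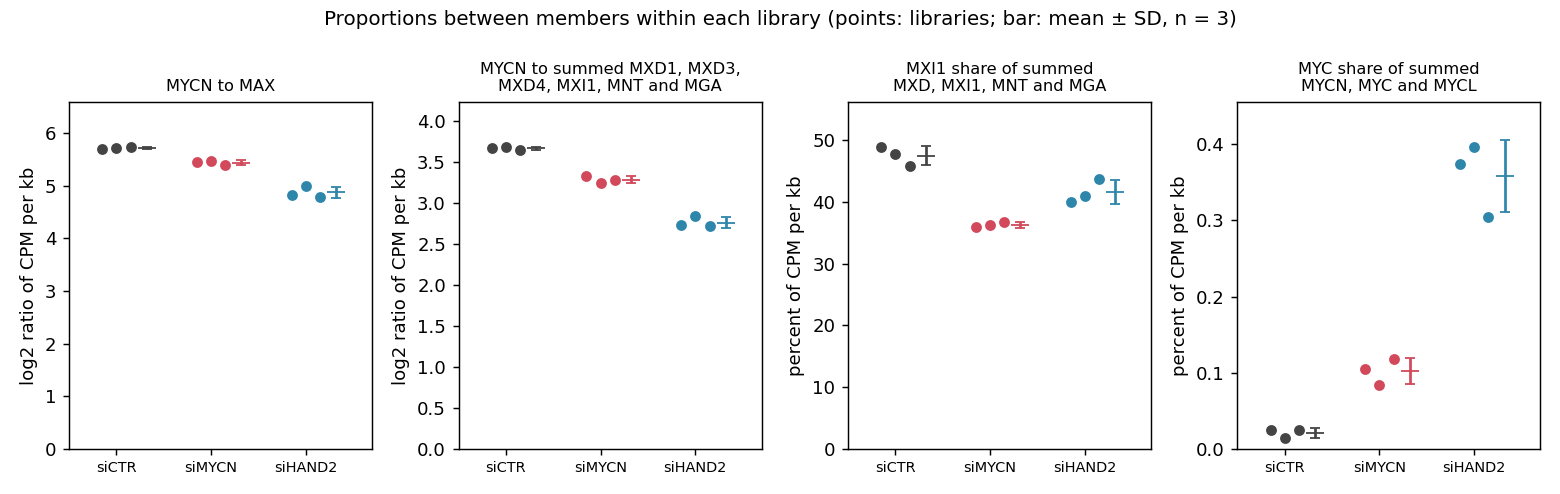
Proportions computed from CPM per kb within each library (points, with mean and SD beside them): log2 ratio of MYCN to MAX and to the 6 antagonists, and the percent of MXI1 among the antagonists and of MYC among the paralogs, all axes from 0. MYCN to MAX falls from 5.72 to 5.44 and 4.87 across siCTR, siMYCN and siHAND2, whereas the MXI1 share is lowest under siMYCN at 36.3%.

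Lists of the partners through which these factors act were counted next. Over all genes tested, 24.5% were higher and 11.4% lower under siMYCN, and 18.1% were higher and 11.8% lower under siHAND2. The MLX arm is a parallel network in which MLX takes the place of MAX, and 4 of its 5 listed genes were tested. In siMYCN 0 were higher and 2 lower, and under siHAND2 0 were higher and 1 lower. The medians of the list were -0.09 and -0.004, beside 0.06 and 0.04 over all genes. ARRDC4, a target of that arm, changed by -0.36 under siMYCN (limma, adjusted p = 0.000562) and -0.35 under siHAND2 (0.000939). TXNIP (-0.01 and 0.06) and MLX itself (0.02 and 0.02), of the same list, passed in no contrast. MLXIP, the glucose-sensing partner of MLX, changed by -0.17 under siMYCN (limma, adjusted p = 0.0167), a call lost without siCTR replicate 2 or siMYCN replicate 2. It was 0.14 higher under siHAND2 than under siMYCN (limma, adjusted p = 0.0482), a call lost without any 1 library other than siHAND2 replicate 1. Of 11 coactivators of MYC, 2 were higher and 3 lower under siMYCN, and 2 higher and 2 lower under siHAND2, with medians of 0.03 and 0.06. With 35.9% and 29.9% of all genes called, these counts do not set the coactivators apart. RUVBL1, an ATPase of chromatin complexes, changed by -0.23 under siMYCN and -0.24 under siHAND2 (limma, adjusted p = 0.000237 and 0.000181). The acetyltransferase KAT2A changed by -0.20 under siMYCN (limma, adjusted p = 0.00748), and the chromatin remodeller EP400 by 0.26 under siHAND2 (0.00121). Over the 18 alternatives, 0 to 2 coactivators were higher and 2 to 3 lower under siMYCN, the former count falling to 0 or 1 without any 1 siCTR library or siMYCN replicate 1 or 3. Without siHAND2 replicate 3, 4 were higher under siHAND2.

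The SIN3 corepressor list, which serves the MXD proteins, MXI1 and MNT, had 3 of 12 genes higher and 1 lower under siMYCN and 2 higher and 0 lower under siHAND2, with medians of 0.06 in both, beside 0.06 and 0.04 over all genes. The shares higher were near those over all genes (24.5% and 18.1%), so the counts do not set the list apart. ARID4A rose by 0.33 under siMYCN (limma, adjusted p = 0.000332) and ARID4B by 0.26 (0.00061). In siHAND2 they rose by 0.18 (0.0291) and 0.15 (0.0252), calls lost after median-ratio rescaling, for ARID4A also without siCTR replicate 2 or 3 or siHAND2 replicate 2, and for ARID4B without siCTR replicate 2 or siHAND2 replicate 3. In siHAND2 against siMYCN 2 genes were higher and 1 lower, with a median of -0.03. Over all genes 11.4% were higher and 15.5% lower there, with a median of -0.01. The subunit SAP30 was 0.24 higher (limma, adjusted p = 0.00238), but it was the gene lower under siMYCN (-0.24, 0.00177) and was near control under siHAND2 (-0.002). The histone-binding RBBP4 was 0.19 higher (0.00521) and passed in neither contrast against siCTR. The lower one, named after its value was seen, was the scaffold SIN3B (-0.21, limma, adjusted p = 0.0473). SIN3B was higher under siMYCN (0.27, 0.00974) and did not pass under siHAND2 (0.06). Its lower call was lost after both other scalings, without the filter, without an intensity trend and in the 2-group fit. It was also lost without siCTR replicate 1 or 2 or siMYCN replicate 1 or 3. Of the 9 PRC1.6 partners of MGA, 2 were higher and 1 lower under siMYCN and 1 was higher under siHAND2, and the lower one was lost without siCTR replicate 1 or 2 or siMYCN replicate 2 or 3. RYBP rose by 0.23 (limma, adjusted p = 0.00399) and RING1 by 0.20 (0.0159) under siMYCN, and YAF2 by 0.18 under siHAND2 (0.032). PCGF6, the subunit that defines PRC1.6, was 0.24 higher under siHAND2 than under siMYCN (0.0133). It was the lower one under siMYCN (-0.21, limma, adjusted p = 0.0211) and did not pass under siHAND2 against siCTR (0.03). The RING1 and YAF2 calls were lost after both other scalings, RING1 also without siCTR replicate 2 or siMYCN replicate 3, and YAF2 without siCTR replicate 2 or siHAND2 replicate 2 or 3.

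Target genes of MYC and MAX fell in both knockdowns. Of 18 listed genes, 17 were lower and 0 higher under siMYCN, and 15 were lower and 0 higher under siHAND2, where 11.4% and 11.8% of all genes were lower. Over the 18 alternatives, 15 to 17 were lower under siMYCN, and 14 to 15 lower and 0 to 1 higher under siHAND2. The list was chosen with earlier results of these data known, so the counts are a description without a test. The median change was -0.40 under siMYCN and -0.28 under siHAND2, beside 0.06 and 0.04 over all genes tested. The ribosome assembly factor NPM1 went from 1743 ± 27.6 CPM under siCTR to 1141 ± 13.98 CPM under siMYCN and 1447 ± 92.1 CPM under siHAND2 (SD, n = 3 libraries). Its changes were -0.61 (limma, adjusted p = 1.11e-07) and -0.27 (0.000364). LDHA, which turns pyruvate into lactate, went from 1433 ± 34.0 to 949 ± 26.0 and 1001 ± 78.1 CPM, changes of -0.59 (limma, adjusted p = 3.51e-07) and -0.52 (9.59e-07). The transferrin receptor TFRC changed by -0.49 and -0.42 (limma, adjusted p = 1.06e-06 and 4.13e-06). Quantile normalization moved the NPM1 change under siMYCN to -0.38.

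The direct comparison of the knockdowns is given beside the transcript level of MYCN. In siHAND2 against siMYCN, 6 of the 18 targets were higher and 0 lower, beside 11.4% of all genes higher, and the median was 0.10 beside -0.01. NPM1 was 0.34 higher (limma, adjusted p = 3.61e-05) and ODC1, the first enzyme of polyamine synthesis, 0.23 higher (0.000223), with 268 ± 7.21 CPM under siCTR, 198 ± 3.52 under siMYCN and 233 ± 1.21 under siHAND2 (SD, n = 3 libraries). Quantile normalization moved the NPM1 difference to 0.22. The MYCN transcript itself differed by -0.50 there, and no target passed as lower under siHAND2, the group with less of it. Only RNA was measured, and the part of MYCN in these differences was not tested. Over the 18 alternatives, 4 to 8 of these targets were higher and 0 lower. The exceptions were named after their values were seen: PTMA passed in neither contrast against siCTR (-0.03 and -0.01), and CDK4 (-0.07) and NOP56 (0.01) did not pass under siHAND2.

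**Figure D4:**
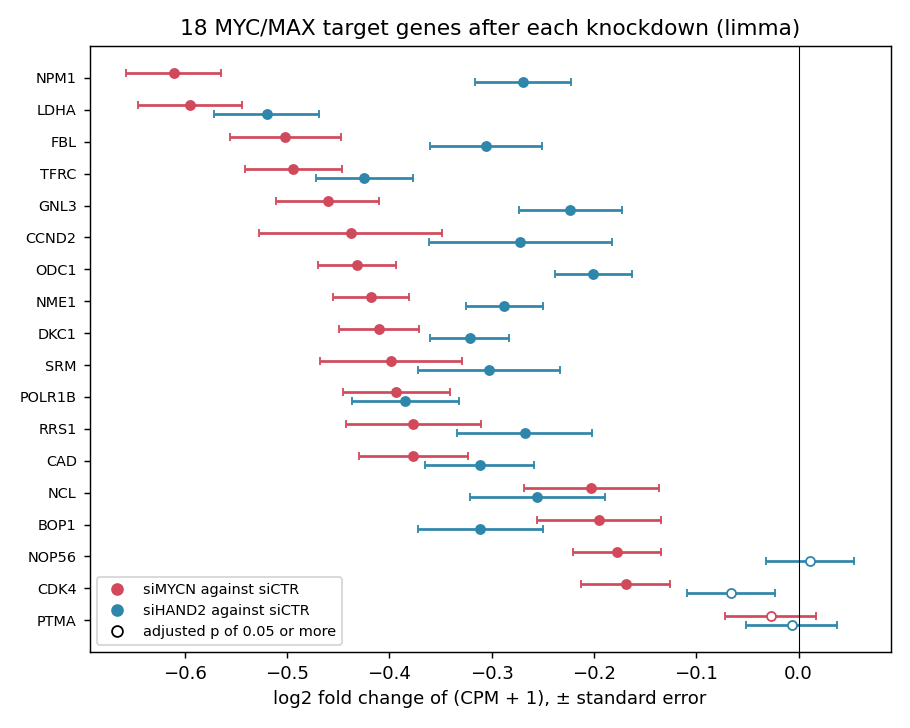
Log2 fold change of CPM + 1 for 18 targets of MYC and MAX under siMYCN and siHAND2 against siCTR (horizontal axis), with standard errors from limma; filled points passed an adjusted p of 0.05. All but PTMA are filled and below 0 under siMYCN, and NPM1 shows the widest gap between the knockdowns (-0.61 and -0.27).

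The 5 genes whose pair of log2 changes against siCTR lay nearest to that of MYCN were FRZB, CPVL, PLCH1, HEG1 and NOD1. They were taken from 2356 genes called in both contrasts with a mean of at least 5 CPM. Their Euclidean distances from MYCN, computed on that pair of changes and not on levels, were 0.09 to 0.24. FRZB, a secreted Wnt antagonist, went from 25.8 ± 2.94 to 18.7 ± 1.54 and 12.8 ± 1.48 CPM (SD, n = 3 libraries), changes of -0.44 and -0.96. CPVL, a carboxypeptidase, went from 16.2 ± 0.528 to 12.5 ± 1.39 and 7.77 ± 0.631 CPM, changes of -0.35 and -0.97. The changes of PLCH1 were -0.34 and -1.15, those of HEG1 -0.28 and -1.03, and those of NOD1 -0.29 and -0.90. In each, the fall under siMYCN was smaller than that of MYCN, and the call of HEG1 under siMYCN was lost without siCTR replicate 1 or 2 or any 1 siMYCN library, that of PLCH1 without siCTR replicate 2 and that of NOD1 without siMYCN replicate 1.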

How the data were processed

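Total RNA of 9 LAN5 libraries was measured. The deposited values are CPM over 25084 genes, each with a constant of 0.0001. STAR 2.5.1 and Partek are named in the submitters' processing notes, and the counting rule, strand setting and annotation are not given in the sources used here. The notes name hg19 and GRCh37, but 8208 of 18213 symbols had the identical start in the GRCh38.p14 RefSeq gene table against 150 of 18635 in a GRCh37 annotation, so positions are given as GRCh38, from 1. Depth came from the step of low values. As 79.4% to 80.9% of values up to 20 steps were whole (within 0.02), no count model was used. Counting error alone is covered by read numbers.

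log2(CPM + 1) of genes reaching 1 CPM in 3 or more libraries was fitted with limma 3.58.1 in R 4.3.3 (3 group means, 9 libraries, intensity trend), two-sided, after the model was tested on simulated data. Transcript lengths came from GENCODE v44lift37. The members, 7 other lists and tests were chosen with earlier results of these data known. Named are the members, genes overlapping them, the 2 called genes with the smallest adjusted p per list and contrast, and the 5 genes nearest to MYCN. Alternatives were pseudocounts of 0.1 and 5, no filter, a 5 CPM filter, median-ratio rescaling, quantile normalization, 2-group fits, no trend, the replicate block and each library left out. The main fit was unpaired, as no label ties the replicate numbers, and the block was run only as an alternative. Deviations from the group means correlated at 0.102 to 0.215 in the 3 same-numbered pairs of siCTR and siMYCN. In those of siCTR and siHAND2 they correlated at 0.121 to 0.266, again all over 0.1. Between the knockdowns the range was -0.129 to 0.434, not all over 0.1.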

Additional observations from a re-analysis of the deposited data

How the results depend on the processing

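The directions of the 10 members in 3 contrasts were recomputed under 9 other settings and with each of the 9 libraries left out. No direction reversed under the other settings. Among fits without a library, MYCL in siHAND2 against siMYCN went from 0.03 to -0.0022 without siHAND2 replicate 1 and to -0.0452 without siHAND2 replicate 3 (range -0.0452 to 0.1454), and MGA in that contrast went from 0.05 to -0.0234 without siHAND2 replicate 3 (range -0.0234 to 0.1164). The calls of MYCN and MXI1 in 3 contrasts and of MAX and MXD4 in siMYCN held under all 18 alternatives, and those of MYC under the 17 that tested it, since the 5 CPM filter drops MYC and MYCL. The number of members past the threshold was 5 to 7 of 10 in siMYCN, 3 to 5 in siHAND2 and 3 to 4 between the knockdowns over the fits without a library. The replicate block made MGA in siMYCN (-0.11, limma, adjusted p = 0.0464) and MNT in siHAND2 (-0.25, limma, adjusted p = 0.021) pass. It changed no other call against siCTR of the members, the named list genes or the 5 genes nearest to MYCN. Of the overlapping genes, MYCNOS and PRELID1 were refitted too, and their calls against siCTR held under all 18 alternatives. Between the knockdowns the same-numbered pairs correlated at 0.434, -0.129 and 0.245, which does not settle whether the numbers mark pairs. There the block made MXD4 pass (-0.18, limma, adjusted p = 0.0455). The genes past the threshold numbered 5895, 5089 and 4689 with the block in place of 5209, 4339 and 3892, and the best match was the own number in 14 of 18 cases. Dividing by coding length put the log2 ratio of MYCN to MAX in siCTR at 3.91 and undivided CPM at 5.45. Depth limits MYC and MYCL most, with 10 to 146 reads per library.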
